A study of Danio rerio with 43 samples.

Results

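In zebrafish embryos homozygous for a rif1 mutation, 44 of the 31877 gene entries counted were repeatedly and strongly higher than in wild type. They were chosen by level, as CPM, the usual depth-scaled count, here a gene's count over the plain total of its library. At 2 or more of 6 stages, the mean over the mutant libraries had to be at least 5 CPM and at least 4 times the mean over the wild-type libraries. The entry ENSDARG00000020711 was left out by the rule. The selection therefore used the genotype difference itself, in every library, and the differences of these genes are given below as values without a test. With mutant and wild type exchanged, the same rule held for 89 entries.

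Rif1 is a chromatin protein that acts in the timing of DNA replication, in part by recruiting protein phosphatase 1 to late origins, and it also takes part in the choice of repair pathway at DNA breaks. A zebrafish egg is supplied with maternal RNA, the cleavage divisions run with very little transcription, and the embryo's own genome is switched on broadly between the 256-cell stage and dome. RNA seen at the 1-cell stage is thus maternal, and RNA at 256-cell very largely so, while from dome onwards maternal and embryonic transcripts are mixed. The 44 genes are described here by the stages at which they stood out.

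The libraries were QuantSeq 3′ end libraries, in which reads come from the ends of polyadenylated transcripts, made from pools of whole embryos. All embryos were of the Tab5 strain, either wild type or rif1 omf201/omf201, and were collected at the 1-cell stage (0 to 0.5 hours after fertilisation, hpf), 256-cell (2 to 2.5 hpf), dome (4 to 4.5 hpf), shield (6 hpf), bud (10 hpf) and 24 hpf. Wild type had 4 libraries at every stage but 256-cell and shield, where it had 3. Mutants had 3 libraries from 1-cell to dome and 4 later. The labels do not name the parents. An effect of the mother's alleles and a difference between lines cannot be told apart at any stage, and from dome on neither can an effect of the embryos' own alleles. Totals ran from 5211421 to 14143931 counts, so that 5 CPM stood for 26.1 counts in the shallowest library and 70.7 in the deepest. Counts of the targeted gene, rif1, lay between 587 and 2305 over the wild-type libraries and between 15 and 139 over the mutant ones, a mutant mean of 1.34% to 14.0% of wild type by stage. Maternal markers were lowest at bud or 24 hpf and 24 hpf markers highest at 24 hpf in both genotypes. Their levels were not equal between the genotypes. Some other listed markers did not peak at their stage. In wild type pou5f3, a blastula marker, was at 1020 CPM at dome and 2180 at shield, and in mutants at 1400 and 2090. The bud marker her1 was at 29.5 CPM at shield and 11.8 at bud in wild type, and at 24.7 and 8.29 in mutants. The maternal transcript btg4 was at 1210 CPM in wild type and 846 in mutants at 1-cell and below 2 CPM in both at bud, and the globin hbae3 was below 10 CPM in both until bud and at 2420 and 2720 CPM at 24 hpf. At 256-cell sox3 was at 21.2 CPM in mutants and 2.47 in wild type. At dome dazl was at 51 CPM in mutants and 102 in wild type, and zar1 and btg4 were also lower in mutants. There tbxta was at 63.9 and 28.8 CPM, and nanog, pou5f3, sox3, vox and gsc were also higher in mutants, while chrd and tbx16 were lower. A difference in developmental pace between the genotypes was not tested. Replicates are separate samples in the labels, but nothing says whether the pools came from separate crosses, so the spread between them may be partly technical.

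The number of entries that met both thresholds was highest at 256-cell and fell at each later stage. It was 127 of the 9031 entries with a mutant mean of at least 5 CPM at 1-cell (1.41%), 156 of 8794 at 256-cell (1.77%), 119 of 8633 at dome (1.38%), 65 of 7545 at shield (0.861%), 26 of 7703 at bud (0.338%) and 13 of 8683 at 24 hpf (0.150%). In all, 455 entries met them at some stage, the one left out included, and 410 of these at 1 stage alone. The number of libraries per group differed by stage as well, and its part in the fall after 256-cell was not tested. Of the 44 genes, 23 met the rule at 1-cell, 32 at 256-cell, 17 at dome, 13 at shield, 9 at bud and 2 at 24 hpf. A single gene met it at 4 stages, 6 at 3 stages and 37 at 2. The largest group, of 15, met it at 1-cell and 256-cell, followed by 9 at 256-cell and dome and 4 at shield and bud. In 34 genes the stages formed an unbroken run, and in 10 there was a gap.

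The 1-cell and 256-cell lists shared 20 entries, 15.7% of the first and 12.8% of the other. The 256-cell and dome lists shared 12 (7.69% and 10.1%), the dome and shield lists 4 (3.36% and 6.15%), the shield and bud lists 5 (7.69% and 19.2%), and the bud and 24 hpf lists 1 (3.85% and 7.69%). No entry was shared between 1-cell and 24 hpf.

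**Figure D1:**
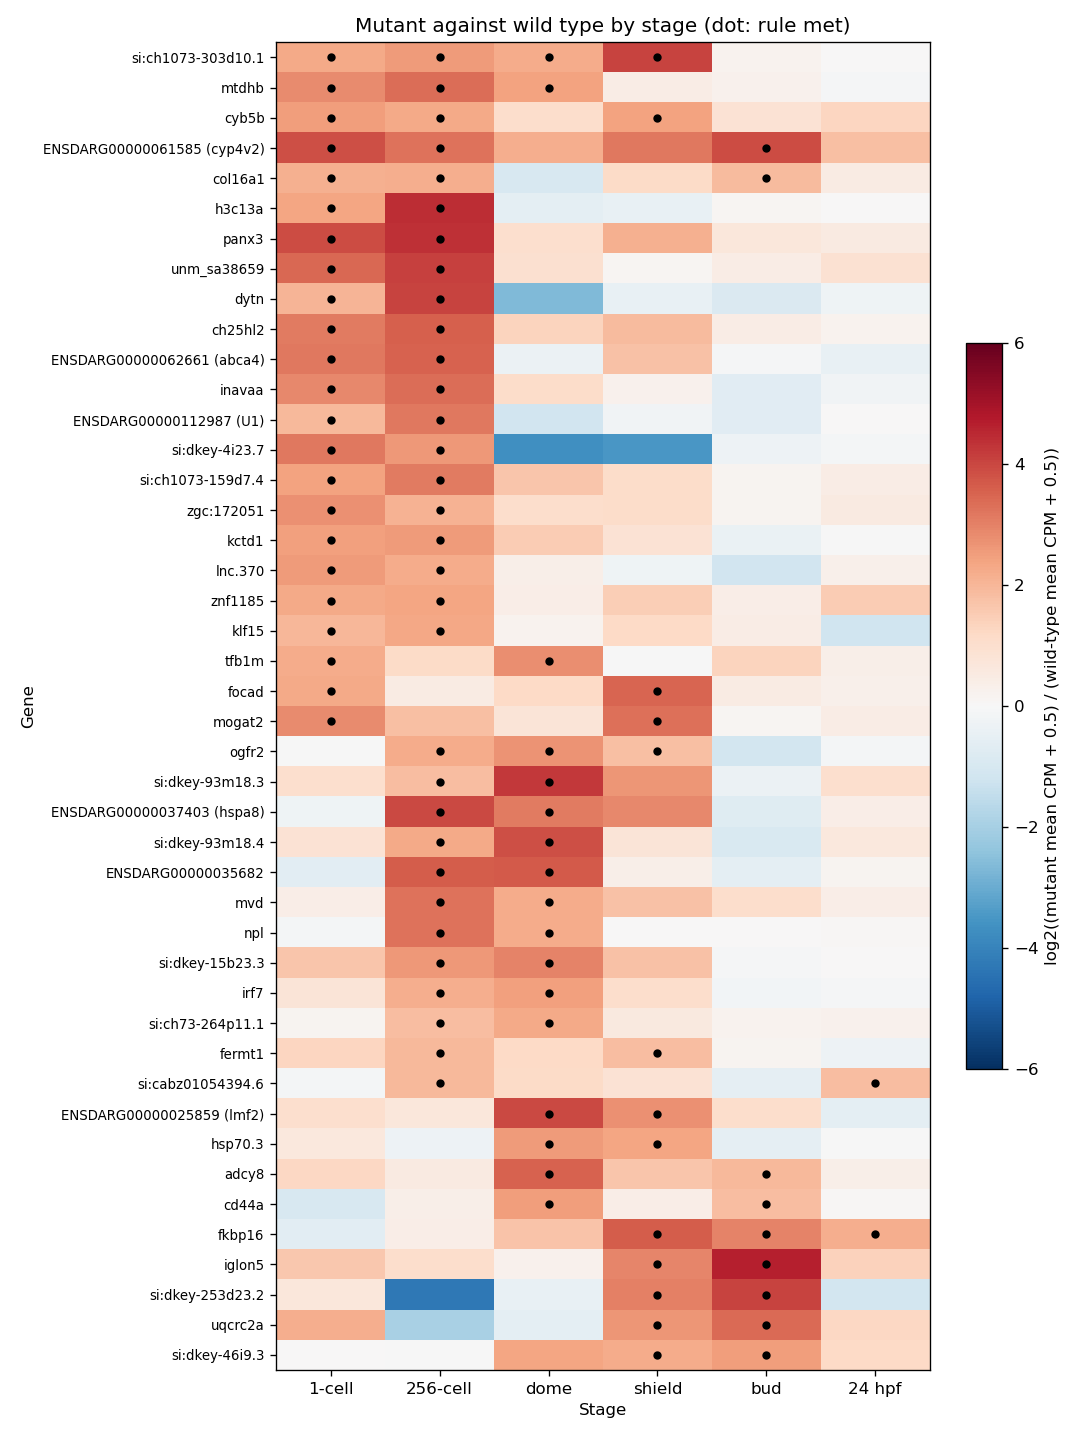
Each of the 44 genes (rows) by stage (columns), coloured by the log2 ratio of the mutant to the wild-type mean after adding 0.5 CPM to both, with a dot where the rule was met. Red fields at neighbouring stages are frequent on the left (1-cell and 256-cell, 15 genes), 24 hpf holds 2 dots, and the strongest blue fields belong to si:dkey-253d23.2 at 256-cell and si:dkey-4i23.7 at dome and shield.

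Of the 264 combinations of a gene and a stage, 96 met the rule and 168 did not. Among the latter, both genotypes were below 5 CPM in 98. In 64 the mutant was still at 5 CPM or more, and there the mutant mean was 2 to 4 times wild type in 25, higher by less than 2 times in 29, and not higher in 10. In the remaining 6 the mutant was below 5 CPM and wild type at or above it. The mutant mean was the higher one at all 6 stages in 14 genes, at 5 stages in 12 and at 4 or fewer in 18. Over all 44 genes, the median log2 ratio (0.5 CPM added) was 2.01 at 1-cell, 2.28 at 256-cell, 1.43 at dome, 1.57 at shield, 0.19 at bud and 0.28 at 24 hpf. Over all entries with 5 CPM or more in either genotype it lay between -0.06 and 0.08 at every stage. The rule chose the 44 by this ratio, and the number that met it differed by stage. The distance from all entries and its course over the stages are thus favoured by the choice and test nothing.

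Over the stages that met the rule, the highest mutant mean of a gene was a median of 1.41 times its lowest (range 1.00 to 8.89), and within 2 times in 32 of the 44 genes. The rule set a lower limit on each of these means, so the values describe the chosen stages and say nothing of how steady the genes were beyond them. In 104 of the 168 remaining combinations the mutant mean was below 5 CPM.

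The gene that met the rule most often was si:ch1073-303d10.1 (ENSDARG00000103006), a predicted gene without an assigned role. At 1-cell its mutant libraries had 16.4, 16.1 and 5.69 CPM, and its wild-type libraries 0.848, 2.66, 2.16 and 3.34. At 256-cell the mutants had 35.5, 23.3 and 30.3 CPM against 6.12, 1.71 and 6.25. No library of one genotype reached into the range of the other. At dome the values were 17.3, 5.76 and 30.2 against 3.98, 3.38, 2.87 and 3.22 CPM, and at shield 11.5, 14.4, 9.82 and 7.76 against 0.259, 0.287 and 0. The ratio of means was thus 5.66, 6.33, 5.28 and 59.7 from 1-cell to shield, the last against 4 wild-type counts in all. At bud and 24 hpf the transcript was near 0 in both genotypes.

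Of the genes at 3 stages, mtdhb (ENSDARG00000004939), which encodes a metadherin, a membrane protein of the endoplasmic reticulum and cell junctions, had the highest level. Its mutant libraries held 156, 117 and 230 CPM at 1-cell, 120, 88.3 and 144 at 256-cell and 163, 122 and 90.5 at dome. In wild type the range was 21.9 to 24.3 CPM at 1-cell, 9.29 to 13.0 at 256-cell and 18 to 28.4 at dome. The ratio of means was 7.36, 10.7 and 5.36 at these stages, without overlap between the genotypes. At shield the mutant mean was 43.9 ± 4.05 CPM (SD, n = 4) and that of wild type 32.0 ± 6.38 (n = 3), and the ranges overlapped, as they did at bud and 24 hpf.

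The entry ENSDARG00000061585, one of 2 that carry the symbol cyp4v2 (a cytochrome P450 that hydroxylates fatty acids), lay above every wild-type library at all 6 stages. Mutants held 12.8, 9.87 and 9.10 CPM at 1-cell, 9.42, 9.77 and 9.84 at 256-cell, and 6.76, 7.77, 6.38 and 8.96 at bud. Wild-type libraries did not exceed 1.59 CPM at any stage. At dome, shield and 24 hpf the mutants were lower, at 3.13 ± 0.853 (n = 3), 4.02 ± 1.96 (n = 4) and 1.26 ± 0.982 CPM (n = 4), with the lowest single library at 0.115 CPM. Wild type had no count at shield or 24 hpf.

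Cyb5b (ENSDARG00000099774), a cytochrome b5 of the outer mitochondrial membrane, met the rule at 1-cell, 256-cell and shield, with ratios of 7.01, 5.67 and 5.84. The mutant values at shield were 17.8, 33.0, 21.2 and 35.2 CPM and the wild-type values 7.0, 2.44 and 4.34. At dome, bud and 24 hpf the mutant means were 10.0, 22 and 22.2 CPM against 4.58, 11.8 and 8.77, with overlap between libraries at bud and at no other stage. Wild-type means at 1-cell and 256-cell had been 1.63 and 2.58 CPM.

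Ogfr2 (ENSDARG00000024815, a gene named after the opioid growth factor receptor) started alike, at 37.3 ± 3.60 CPM (n = 3) in mutants and 37.7 ± 5.90 (n = 4) in wild type at 1-cell, and then separated. At 256-cell, dome and shield mutants had 21.9, 17.5 and 10.7 CPM on average and wild type 4.26, 2.30 and 2.66, without overlap, and at bud both were below 3 CPM. Fkbp16 (ENSDARG00000001976), of the family of FK506-binding prolyl isomerases, was the only gene to meet the rule at the 3 latest stages. Its mutant libraries had 9.64, 2.19, 8.85 and 4.28 CPM at shield, 2.46, 6.10, 6.93 and 6.93 at bud and 16.9, 10.2, 9.14 and 14.7 at 24 hpf, and no wild-type library exceeded 0.132, 1.09 and 3.72 CPM at these stages. From 1-cell to dome the genotypes overlapped. Col16a1 (ENSDARG00000009194), a fibril-associated collagen, met it at 1-cell, 256-cell and bud. Its mutant libraries had 5.25, 3.58 and 8.82 CPM at 1-cell against 0.682 to 1.29 in wild type, and 3.57, 5.33, 6.16 and 7.79 at bud against 0.133 to 2.11. At 256-cell they had 1.96, 12.5 and 4.92 CPM and overlapped with wild type, at 2.32, 0.714 and 0. Without the highest mutant library neither 1-cell nor 256-cell met the rule. At 24 hpf col16a1 reached 58.2 ± 6.14 CPM in mutants and 41.7 ± 4.52 in wild type (n = 4 each).

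**Figure D2:**
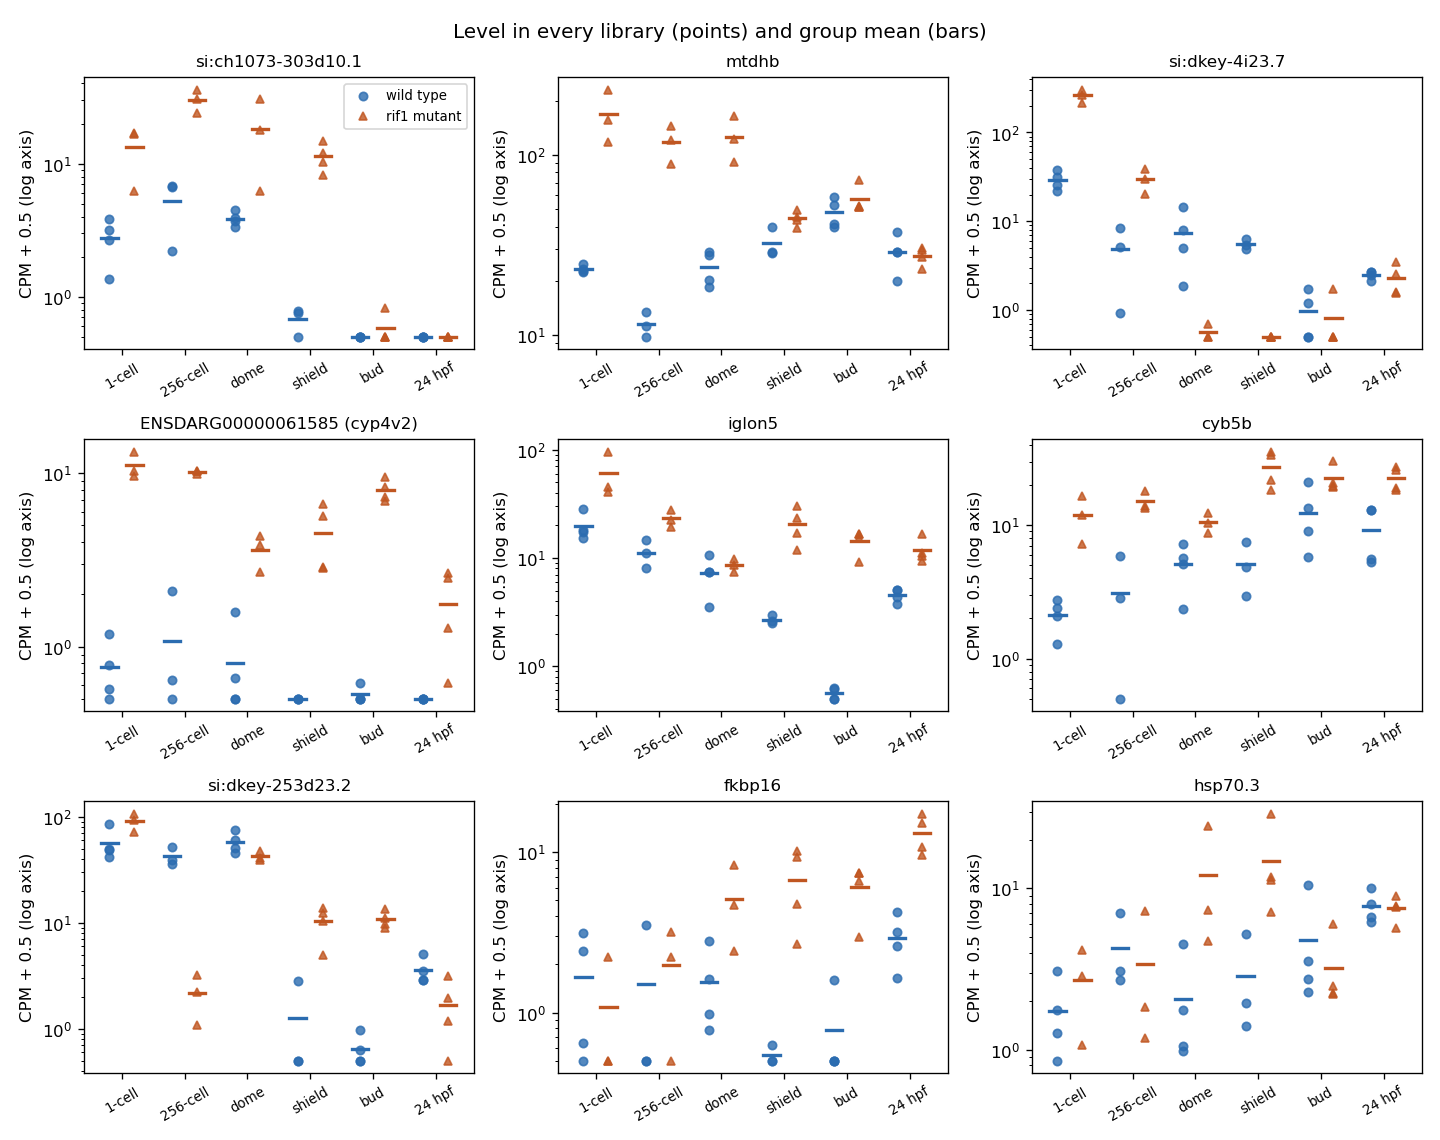
CPM plus 0.5 (log axis) in every library of 9 genes by stage, wild type as blue circles and mutants as orange triangles, with bars at the group means. ENSDARG00000061585 lies above wild type at all 6 stages, mtdhb meets wild type from shield onwards, and si:dkey-253d23.2 is below wild type at 256-cell and above it at shield and bud.

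The 15 genes that met the rule at 1-cell and 256-cell alone were panx3, h3c13a, unm_sa38659, dytn, ch25hl2, inavaa, kctd1, klf15, znf1185, lnc.370, zgc:172051, si:ch1073-159d7.4, si:dkey-4i23.7 and the shared-symbol entries ENSDARG00000062661 (abca4) and ENSDARG00000112987 (U1). Their difference was thus present at a stage whose RNA is maternal, which the rule fixes. Panx3 (ENSDARG00000004627), a pannexin channel subunit, had 7.58, 7.48 and 8.53 CPM in 1-cell mutants and 11.4, 13.0 and 11.0 at 256-cell. In wild type it had 3 counts over the 4 libraries at 1-cell and 2 over the 3 at 256-cell, so no ratio is given. H3c13a (ENSDARG00000068941), a histone H3 gene, had 18.3 ± 2.71 CPM (n = 3) in mutants and 3.12 ± 1.5 (n = 4) in wild type at 1-cell, and 23.2 ± 4.21 and 0.591 ± 0.420 (n = 3 each) at 256-cell, 39.3 times wild type. At dome the mean was lower in mutants (30.4 and 46.3 CPM) with overlap, and at shield every mutant library was lower, at 48.2 ± 6.62 (n = 4) against 66.7 ± 9.73 CPM (n = 3).

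The most abundant of the 44 was si:dkey-4i23.7 (ENSDARG00000094295), a predicted gene. At 1-cell mutants had 304, 266 and 213 CPM and wild type 21.6, 31, 25.2 and 37.8, a ratio of 9.02. At 256-cell the values were 29.7, 19.7 and 38.6 against 7.95, 0.429 and 4.65 CPM. The order then turned over. At dome mutants had 0, 0.192 and 0 CPM and wild type 14.0, 1.38, 4.46 and 7.43, and at shield all 4 mutant libraries were at 0 while wild type had 4.92, 5.88 and 4.34. In mutants the transcript fell from 1-cell to 256-cell, both of them qualifying stages, by 3.26 on the log2 scale (SE 0.24, edgeR adjusted p 2.28e-07). In wild type it fell over the same step by 2.82 (SE 0.53, edgeR adjusted p 0.000397). The rule used these levels, so such stage changes of the chosen genes, here and below, are a description.

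Other early genes were at moderate levels. Inavaa (ENSDARG00000078155), named after a human activator of innate immunity, had 50.8, 35.2 and 32.7 CPM in 1-cell mutants against 4.24, 1.89, 7.85 and 5.53 in wild type. At 256-cell it had 16.8, 26.2 and 11.9 CPM against 1.47, 1.57 and 0.962. From dome to 24 hpf the genotypes overlapped. The gene named for an allele, unm_sa38659 (ENSDARG00000104501), was 15.6 and 26.1 times higher at 1-cell and 256-cell. Its wild-type level then rose from 0.911 to 17.6 CPM between 256-cell and dome, where the mutants had 34.9. Kctd1 (ENSDARG00000074056), a BTB-domain repressor of AP-2 transcription factors, was 6.82 and 7.13 times higher, and the predicted si:ch1073-159d7.4 (ENSDARG00000105359) 5.98 and 10.3 times. Ch25hl2 (ENSDARG00000038728), related to cholesterol 25-hydroxylase, had 6.24, 5.14 and 4.92 CPM in 256-cell mutants and no wild-type count. That is at least 38.8-fold higher against a floor of 3 counts over the wild-type group.

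Dytn (ENSDARG00000071025), a relative of dystrobrevin, had 17.8, 12.4 and 4.98 CPM in 1-cell mutants and 4.89, 4.11 and 14.6 at 256-cell, where wild type had no count (at least 56.2-fold higher against the same floor). At dome it had no count in mutants, and 0.319, 7.06, 2.07 and 0.981 CPM in wild type. The remaining 6 genes of this group with a symbol or entry of their own, klf15, znf1185, lnc.370, zgc:172051, ENSDARG00000062661 and ENSDARG00000112987, had mutant means of 5.32 to 21.9 CPM at the 2 stages. The lowest and the highest of these both belong to lnc.370, at 256-cell and 1-cell. ENSDARG00000112987 had 1.83, 4.77 and 10.8 CPM in 1-cell mutants against 2.48, 1.20, 0.114 and 0.858, with overlap, and 5.63, 15.1 and 6.41 at 256-cell against 0.367, 0 and 1.28. ENSDARG00000062661 had 5.62, 3.36 and 11.1 CPM against 0.0707, 0, 0 and 1.14 at 1-cell. At 256-cell it had 8.32, 2.57 and 9.24 CPM against 3 wild-type counts in all.

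A group of 9 met the rule at 256-cell and dome. Mvd (ENSDARG00000099336), the mevalonate diphosphate decarboxylase of sterol synthesis, had 35.7, 42.2 and 39.96 CPM in 256-cell mutants and 5.87, 3.0 and 1.92 in wild type, 10.9 times as much. At 1-cell both genotypes were lower and overlapped (6.53 and 4.87 CPM on average). The mutant level fell from 256-cell to dome, both of them qualifying stages, by 2.25 on the log2 scale (SE 0.33, edgeR adjusted p 1.86e-05). At dome mutants had 8.06, 5.76 and 6.59 CPM and wild type 0.56 to 1.69. The mutant mean stayed the higher one to 24 hpf.

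Irf7 (ENSDARG00000045661), a transcription factor of the interferon response, had 7.71, 8.06 and 8.50 CPM in mutants and 0.734, 2.29 and 1.12 in wild type at 256-cell. At dome it had 14.6, 24.8 and 16.7 against 2.07, 4.76, 2.87 and 2.10 CPM, and it was below 1 CPM on average in both genotypes from shield on. Npl (ENSDARG00000009390), which cleaves sialic acid, was 19.2 and 6.98 times higher at 256-cell and dome. At bud it had 21.1 ± 6.50 CPM in mutants and 20.9 ± 2.95 in wild type (n = 4 each). Next to each other on chromosome 21, among the entries that could be placed, lie si:dkey-93m18.3 (ENSDARG00000092664) and si:dkey-93m18.4 (ENSDARG00000092967). The first had 9.40, 13.8 and 7.91 CPM in dome mutants and 2 counts in wild type. The other had 7.72, 8.63 and 4.25 CPM against no count, at least 60.0-fold higher against the floor, and both were below 1 CPM on average from bud on.

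Of the rest of this group, si:dkey-15b23.3 (ENSDARG00000090696) was 7.69 and 12.4 times higher and si:ch73-264p11.1 (ENSDARG00000091835) 4.82 and 5.25 times. ENSDARG00000037403, one of 2 entries with the symbol hspa8, a constitutive Hsp70 chaperone, had 7.71, 11.8 and 3.88 CPM in 256-cell mutants and 1 count in wild type. ENSDARG00000035682, which has no symbol, had 8.57, 1.89 and 6.41 CPM in 256-cell mutants against no wild-type count. Its dome libraries had 5.21, 16.7 and 1.61 CPM against at most 0.638, and both of its qualifying means fell short without the highest mutant library.

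Iglon5 (ENSDARG00000022176), an immunoglobulin-domain adhesion protein of neurons, met the rule at shield and bud. It had 11.4, 16.6, 22.9 and 29.5 CPM in shield mutants against 2.46, 2.01 and 2.10 in wild type, and 16.0, 14.9, 16.3 and 8.64 at bud against 0, 0.133, 0 and 0.118. The mutant mean was above wild type at every stage, and the libraries overlapped at dome alone. In mutants the level fell by 1.54 on the log2 scale from 1-cell to 256-cell (SE 0.34, edgeR adjusted p 0.00196). In wild type it fell over that step as well, by 0.98 (SE 0.32, edgeR adjusted p 0.0154). The wild-type mean went from 6.71 to 2.19 CPM between dome and shield, a step that was not called (edgeR adjusted p 0.162).

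Si:dkey-253d23.2 (ENSDARG00000071589) was lower in mutants at 256-cell and higher at shield and bud. At 1-cell mutants had 93.2, 72.0 and 106 CPM and wild type 48.3, 84.3, 41.3 and 48.8. At 256-cell the mutants were at 2.69, 1.71 and 0.596 CPM and wild type at 38.3, 51.6 and 35.1. At dome mutants were back up at 42.3 ± 4.50 CPM (n = 3) and wild type was at 57.5 ± 12.9 (n = 4), with overlap. At shield and bud mutants had 9.86 ± 3.87 and 10.3 ± 2.08 CPM (n = 4 each), and wild type 0.765 ± 1.33 (n = 3) and 0.151 ± 0.223 (n = 4). In mutants, the fall to 256-cell of 5.84 log2 units (SE 0.39, edgeR adjusted p 1.21e-07) and the rise to dome of 4.89 (SE 0.43, adjusted p 5.98e-08) were both called. No wild-type library left the range of 35.1 to 84.3 CPM over these 3 stages. The wild-type rise from 256-cell to dome was called as well, at 0.64 log2 units (SE 0.22, edgeR adjusted p 0.0204). The wild-type fall to 256-cell was not called (edgeR adjusted p 0.0585). From bud to 24 hpf the level fell by 2.98 log2 units in mutants (SE 0.66, edgeR adjusted p 0.000756). In wild type it rose by 4.38 (SE 0.97, edgeR adjusted p 0.000724), and at 24 hpf the mutant mean was not the higher one. The rule read a high mutant and a low wild-type mean at bud. Both changes are thus favoured by the choice of the gene and are a description.

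Uqcrc2a (ENSDARG00000014794), a core subunit of respiratory complex III, had 5.97 and 7.93 CPM in mutants at shield and bud against 0.517 and 0.308. It was also above wild type without overlap at 1-cell, and lower at 256-cell, with 0.172 against 2.10 CPM. Si:dkey-46i9.3 (ENSDARG00000104273) was absent or near 0 before dome and 6.37 and 8.05 times higher at shield and bud. ENSDARG00000025859, one of 2 entries with the symbol lmf2, a lipase maturation factor, had 128, 127 and 142 CPM in dome mutants and 6.21, 0.461, 6.54 and 19.2 in wild type. At shield it had 24.1 ± 5.38 (n = 4) against 3.21 ± 4.31 CPM (n = 3). In mutants it fell from dome to shield, both of them qualifying stages, by 2.04 on the log2 scale (SE 0.19, edgeR adjusted p 1.56e-08). Its wild-type mean went from 41.8 CPM at 256-cell to 8.10 at dome, a step that was not called (edgeR adjusted p 0.078).

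Adcy8 (ENSDARG00000031783), an adenylyl cyclase, was 14.6 times higher at dome and 4.54 times at bud, and the hyaluronan receptor cd44a (ENSDARG00000087863) 7.46 and 4.15 times. Both genotypes had much cd44a at shield between these stages, at 56.6 ± 7.44 CPM in mutants (n = 4) and 43.5 ± 8.92 in wild type (n = 3). Hsp70.3 (ENSDARG00000021924), a heat-inducible chaperone, met the rule at dome and shield, with 6.88, 23.8 and 4.25 and then 28.6, 10.8, 6.64 and 11.2 CPM in mutants. In each of these groups a single library was more than 2 times the next. Wild type was at or below 4.73 CPM in every library of these stages.

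Among genes with a gap between qualifying stages, focad (ENSDARG00000022020, focadhesin) and mogat2 (ENSDARG00000019228, a monoacylglycerol acyltransferase of fat synthesis) met the rule at 1-cell and shield. Focad mutants had 37.5, 33.9, 32.5 and 25.7 CPM on average from 1-cell to shield, and wild type 7.32, 23.8, 13.8 and 1.81. Mogat2 reached 57.1 and 52.1 CPM at bud in mutants and wild type, with overlapping libraries, after ratios of 9.77 at 1-cell and 14.0 at shield. Tfb1m (ENSDARG00000040727), a methyltransferase for mitochondrial ribosomal RNA, was 5.03 and 8.36 times higher at 1-cell and dome, and the libraries did not overlap at 256-cell either. Fermt1 (ENSDARG00000052652), a kindlin that activates integrins, met the rule at 256-cell and shield, where its mutant libraries had 10.1, 1.41, 13.1 and 4.12 CPM and overlapped with wild type. Si:cabz01054394.6 (ENSDARG00000098324) met it at 256-cell (6.88 against 1.44 CPM) and 24 hpf (5.01 against 1.00). Without the highest mutant library neither stage of it met the rule, and the same was so for fermt1.

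In 92 of the 96 cases every mutant library lay above every wild-type library of the stage, and in 40 of the 44 genes this was so at all qualifying stages. Over all entries that met both thresholds at a stage, this held for 452 of 506 (89.3%), and over all with a mutant mean of at least 5 CPM for 12.9%. The mean is what the rule read, so these counts describe the libraries behind a chosen difference and test nothing. The 4 overlapping cases were ENSDARG00000112987 at 1-cell, col16a1 at 256-cell, cd44a at dome and fermt1 at shield. In 46 cases each mutant library by itself was at 5 CPM or more and at 4 times the wild-type mean or more. In 10 cases a single mutant library was. Leaving out the highest mutant library took 26 of the 96 cases below a threshold, and 26 genes still met the rule at 2 stages when this was done at every stage. No qualifying stage was then left for dytn, klf15, fermt1, si:cabz01054394.6 and ENSDARG00000035682.

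**Figure D3:**
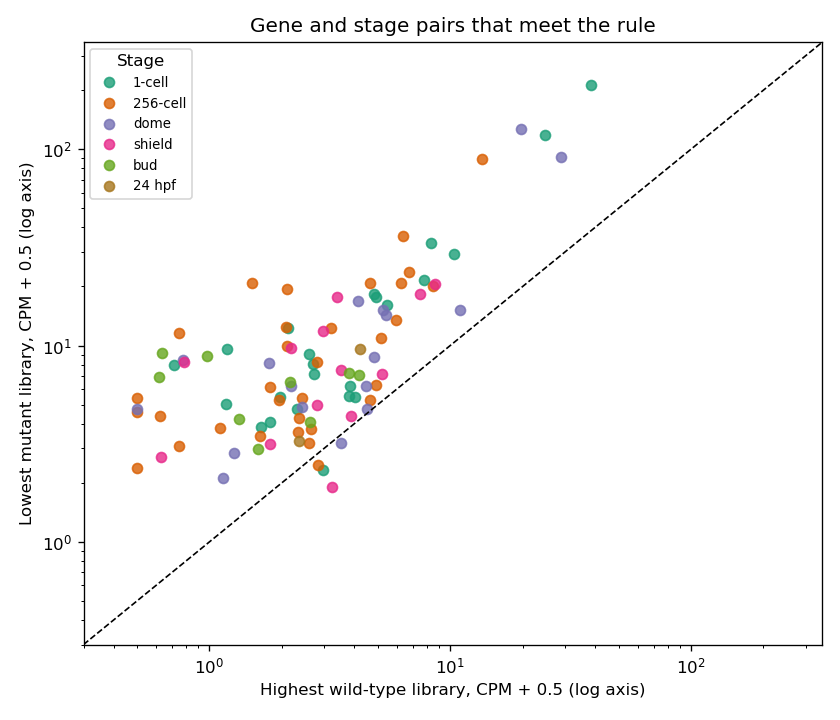
The lowest mutant library (vertical) against the highest wild-type library (horizontal) in CPM plus 0.5, on log axes, for the 96 cases of a gene and a stage that met the rule, coloured by stage. The dashed line marks equality, and 92 of the 96 points lie above it.

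At the stages that met the rule, their median coefficient of variation was 33.5% at 1-cell, 29.7% at 256-cell, 31.6% at dome, 42.6% at shield, 26.9% at bud and 36.3% at 24 hpf. Over all entries with a mutant mean of at least 5 CPM it was 21.3%, 14.0%, 18.1%, 19.9%, 20.3% and 16.8%. The part of low counts in this spread was not tested. Their highest qualifying mean was under 10 CPM in 15 genes, 10 to 50 in 26 and 50 or more in 3. At 1-cell the highest value came from mutant replicate 1 in 10 genes, replicate 2 in 2 and replicate 3 in 11. At 256-cell it came from replicates 1, 2 and 3 in 7, 11 and 14 genes, and at shield from replicates 1 to 4 in 5, 2, 3 and 3. At 256-cell the coefficient was 9.01% for panx3, 2.31% for ENSDARG00000061585 and 4.89% for irf7.

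Change between stages was tested within each genotype by edgeR's quasi-likelihood method on the whole table. The rule used the same levels, so steps into and out of a qualifying stage are favoured by the choice of genes. In mutants, 43 of 83 such steps were called (51.8%), and 37 of the 105 between stages alike in the rule (35.2%). The counts that follow, and the single-gene stage changes given above, are therefore a description. In mutants, 42 of the 44 genes passed the filter on low counts from 1-cell to 256-cell, and 7 rose and 7 fell, against 45.5% of all genes tested called in either direction. From 256-cell to dome 7 rose and 9 fell of 42 (all genes 50.1%), and from dome to shield 11 rose and 7 fell of 40 (47.3%). From shield to bud 4 rose and 12 fell of 32 (45.6%), and from bud to 24 hpf 6 rose and 10 fell of 32 (59.4%). The median log2 change lay between -0.22 and 0.17, beside -0.09 to 0.06 over all genes. In wild type the calls were 4 up and 9 down of 32 (49.2%), 4 and 3 of 29 (43.3%), 8 and 6 of 31 (52.9%), 6 and 5 of 29 (50.5%) and 9 and 5 of 30 (60.0%) for the same steps. In all, 39 of the 44 tested were called at some step in mutants and 30 of the 40 tested in wild type, beside 81.8% and 82.4% of all genes tested. The share of the 44 called was below the background at every step in both genotypes but that from shield to bud in mutants. From dome to shield in mutants it was close, at 45.0% against 47.3%. Taken over all steps, the mutant share was above the background. The part of the low levels of these genes in the shares was not tested, and the shares are no result about the 44. Amount and poly(A) tail length of a transcript cannot be told apart in such libraries, nor can fewer cells of a type and less RNA per cell. Replicates at 1-cell are numbered apart from those of later stages, and a batch of that kind cannot be told apart from the step from 1-cell to 256-cell.

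Position in the genome was looked up in a RefSeq gene table of assembly GRCz12tu, which placed 31 of the 44 genes by symbol. None of them was on chromosome 9, which holds rif1 and 3.77% of the 17111 entries placed. The 31 were spread over 18 chromosomes, with 4 on chromosome 7 (12.9%, against 5.68% of all placed entries) and 3 each on chromosomes 3 and 21. Among the placed genes of the 44, only si:dkey-93m18.3 and si:dkey-93m18.4 were next to each other. Here and below, neighbours are neighbours in the order of placed entries, and entries without a place may lie between them. The neighbours tested were the nearest placed entries on each side of the 31 that were not among the 44. Any of the 44 in between was passed over, so si:dkey-93m18.3 and si:dkey-93m18.4 share the same neighbours. The neighbours were thus chosen as entries that did not meet the rule, while the background takes in all genes tested. Their genotype difference was tested. Of 60 such neighbours, 39 passed the filter at some stage, and 12 of these were called at 1 or more stages, where 31.0% of all genes tested were. By stage the calls were 4 of 29 at 1-cell (10.2% of all genes), 3 of 28 at 256-cell (13.5%), 5 of 29 at dome (17%), 2 of 25 at shield (9.76%), 1 of 25 at bud (5.51%) and 1 of 30 at 24 hpf (8.63%). These shares lie on both sides of the background and are no result about the neighbours.

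**Figure D4:**
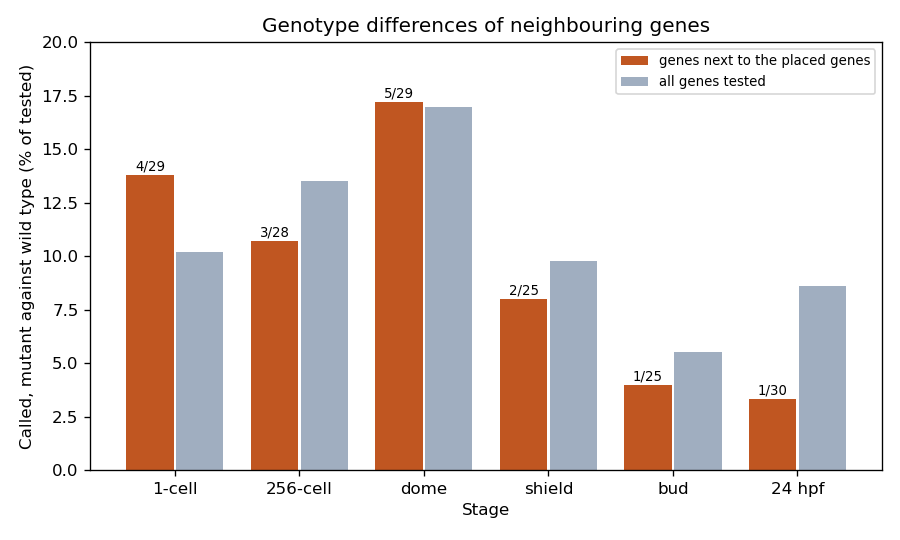
Share of tested genes called between mutant and wild type (edgeR, adjusted p under 0.05) by stage. Orange bars are the nearest genes beside the 31 placed genes that did not meet the rule, with the number called of the number tested. Grey bars are all genes. The orange bars run from 1 of 30 at 24 hpf to 5 of 29 at dome and lie on both sides of the grey ones.

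The neighbours described here were picked from the 12 called, after their values were seen. Beside si:dkey-253d23.2, the gene si:dkey-253d23.3 (ENSDARG00000095643) was without a count in 256-cell mutants and at 8.19, 15.4 and 4.17 CPM in wild type (edgeR adjusted p 2.73e-05). At dome it was at 0.635 and 7.39 CPM on average (log2 fold change -3.38, SE 1.03, adjusted p 0.0226). That call was lost without mutant dome replicate 1 or 2 or wild-type dome replicate 1, 2 or 3, with adjusted p up to 0.0935. Its means at shield and bud were 3.44 and 4.84 CPM in mutants and 0.371 and 0.910 in wild type, and these differences did not pass the threshold (adjusted p 0.163 and 0.144). Beside mvd, cyba (ENSDARG00000018283), a subunit of the phagocyte NADPH oxidase, was higher in mutants at shield, with 25.2, 37.7, 22 and 22 CPM against 2.07, 10.5 and 5.65 (edgeR adjusted p 0.000836 for a log2 fold change of 2.20, SE 0.41). It was higher at bud as well, at 34.4 ± 7.53 against 16.0 ± 3.43 CPM (n = 4 each; 1.15, SE 0.23, adjusted p 0.00353). Beside cyb5b, dhx38 (ENSDARG00000100013), a helicase of splicing, was lower at 1-cell, at 104 ± 12.05 CPM (n = 3) against 237 ± 45.7 (n = 4), with a log2 fold change of -1.27 (SE 0.20, edgeR adjusted p 0.00134). The lowest adjusted p among the neighbours belonged to zgc:195245 beside inavaa, higher at 256-cell (0.86, SE 0.10, edgeR adjusted p 1.47e-06). Beside mtdhb, cep85 was higher at 1-cell and 256-cell (edgeR adjusted p 0.0302 and 0.0208). Beside tfb1m, scaf8 was lower at dome and shield (edgeR adjusted p 0.0163 and 0.0283).

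A symbol shared with other entries makes 5 of the 44 uncertain, since reads of similar copies could be split between entries in counting. Similar copies under other symbols could share reads as well, and these were not summed. Among the placed genes, hsp70.1 lies next to hsp70.3, ogfr1 next to ogfr2, and the histone gene hist2h3c near h3c13a. For lmf2, the sum over both entries kept most of the difference at dome, at 141 ± 9.28 CPM (n = 3) in mutants against 23.4 ± 7.41 (n = 4), 6.01 times as much, and 4.21 times at shield. For cyp4v2 the other entry held at most 1.31 CPM on average at any stage, so that the sum was 25.6, 17.2 and 10.1 times higher from 1-cell to dome. At 24 hpf that entry (1.31 CPM in mutants) was about level with the chosen one (1.26), and the sum, 5.69 times wild type, overlapped between the genotypes. For abca4 (a lipid transporter of photoreceptors) the sum was 5.96 times higher at 1-cell and 3.73 times at 256-cell. For hspa8 the other entry, ENSDARG00000068992, held nearly all counts, with 364 CPM in mutants and 564 in wild type at 256-cell (log2 fold change -0.68, SE 0.10, edgeR adjusted p 4.75e-05). The summed level was thus lower in mutants there, at 0.658 times wild type, although the smaller entry was higher. The sum over the 162 entries named U1, a small nuclear RNA of the spliceosome that normally lacks a poly(A) tail, was 1.69 times wild type at 1-cell and 1.93 times at 256-cell. From dome on the mutant mean was 0.933, 0.839, 0.531 and 0.794 times wild type, and at bud every mutant library was below every wild-type library. Over all 165 further entries with these symbols, 17 passed the filter at some stage, with 2 called higher and 4 lower in mutants, where 31.0% of all genes tested were called.

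By name, 11 of the 44 (25.0%) carried a predicted or clone name, against 9.07% of the 10267 entries with a mutant mean of 5 CPM or more at 2 or more stages. Shared symbols made up 11.4% of the 44 and 13.8% of those entries. None of the 44 was on a list of p53 targets, which made up 0.0877% of those entries. Of the 44, znf1185 and the cyp4v2 entry belonged to multicopy families looked for by symbol (4.55%, against 1.67%). The symbol had to start with nlr, gimap, ftr, mhc, znf, ugt, cyp, hist, trim or pcdh. Other multicopy genes, such as the U1 entry and h3c13a, were thus not taken in. At the edge of the rule, the nearest genes inside were si:dkey-93m18.3, cd44a and fermt1, whose second highest ratio was 4.06, 4.15 and 4.35. The nearest outside were znf469, irak3 and s100s at 4.00 (8.69 against 2.18 CPM at 256-cell, just under the threshold before rounding), 3.99 (6.05 against 1.51 CPM at dome) and 3.91 (6.96 against 1.78 CPM at 1-cell).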

How the data were processed

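The deposited table holds raw counts per gene entry for 43 libraries (22 wild type, 21 mutant), and the authors applied no normalization to them, as their whole numbers show. STAR, HTSeq and the build GRCz11 are named in the submitters' processing notes. Their versions, the annotation and whether strand or molecular identifiers were used are not given in the sources used here, so overlapping genes and similar copies could share reads, and count floors cover counting error only. Every column was used, and totals ran from 5211421 to 14143931 counts.

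CPM was the count over the library total, without scaling factors. Of the 31877 entries, 28877 had a symbol in the gene name table used here. Symbols given there in capitals are written in lower case, and shared ones are replaced by the identifier. RefSeq positions (GRCz12tu) were used by symbol only for chromosome and gene order. No 2 replicate libraries were alike within counting error (57 pairs, chi-square per gene of at least 7.60 over genes with 20 counts or more).

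Tests used R 4.3.3, edgeR 4.0.16 (quasi-likelihood, robust, TMM, filterByExpr) with limma 3.58.1, on the libraries of the 2 groups compared and over all genes, with Benjamini-Hochberg adjustment and a threshold of 0.05. They were tested on simulated data. The SE given with an edgeR log2 change was derived, as the absolute change over the square root of the F statistic of the test. DESeq2 1.42.0, RLE and unscaled totals, no filter, a replicate block and leaving out each library were alternatives. A fold against a group at 0 used a floor of 3 counts over the group, and no ratio is given for 1 to 3 counts. Same-numbered mutant and wild-type libraries were compared by the correlation of their deviations.

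The genes and lists were chosen with earlier results of these data known. Genes were named by a rule that took those at 4 or more stages, the 5 of highest level, the 5 of widest spread between mutant libraries, 3 on each side of the threshold and those with a shared symbol or a chosen neighbour. All others were named after their values were seen.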

Additional observations from a re-analysis of the deposited data

Results flagged for a closer look

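For focad at shield, 1 of the 4 mutant libraries stood apart, at 17.1 CPM against 27.8, 28.3 and 29.6, and it was still above every wild-type library. This was the only one of 24 such groups of 4 mutant libraries in which the gap passed Dixon's 95% value, and chance alone gives about 1 in 20.

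In 6 genes every mutant library was above every wild-type library at some stages and below at another. The change of the difference between stages was not tested in any of them. How many of all entries behave in this way was not counted, so the number is no result about these genes. At the lower stage of dytn, lnc.370 and uqcrc2a, neither genotype had a mean above 2.61 CPM. Si:dkey-4i23.7 was higher at 1-cell and 256-cell, and lower at dome (0.0640 against 6.82 CPM) and shield (0 against 5.05). Si:dkey-253d23.2 was higher at shield and bud and lower at 256-cell (1.67 against 41.6 CPM). Dytn was higher at 1-cell and 256-cell and lower at dome (0 against 2.61 CPM), and lnc.370 was higher at the same stages and lower at bud (0.629 against 2.02 CPM). For uqcrc2a the lower stage was 256-cell (0.172 against 2.10 CPM) and for h3c13a it was shield (48.2 against 66.7 CPM).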

How the results depend on the processing

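The number of genes that met the rule was 44. It was 45 with medians in place of means (31 of them among the 44), 45 with TMM-scaled CPM (42 shared) and 41 when the libraries also had to be free of overlap, and ran from 42 to 50 when each library was left out in turn. It followed the thresholds closely, with 95 at a ratio of 3, 13 at a ratio of 8, 118 at 2 CPM, 17 at 10 CPM and 7 at 3 or more stages. Without 1 library at a time, the genes called between stages numbered 36 to 40 in mutants and 28 to 32 in wild type, the neighbours called 9 to 14, and the shared-symbol entries called 5 to 7. With the 3 nearest genes on each side, out of 180, 39 neighbours were called. The number of the 180 that passed the filter is not given here, so this count has no share to set beside the 31.0% of all genes tested. Under RLE, unscaled totals, no filter and DESeq2 the counts stayed within 1.5 times.

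Same-numbered mutant and wild-type libraries deviated together in 1 of 20 cases (correlation over 0.1, range -0.16 to 0.14). No pairing by number was thus seen, but with so few libraries per group its absence cannot be shown. With the replicate block the calls were 37, 26, 10 and 4 in place of 39, 30, 12 and 6. Of 48 called single-gene results, 36 kept direction and call under all alternatives run, and 52 of 576 alternative values lost the call. None was reversed. Depth limits the low genes most, since 5 CPM is 26.1 counts in the shallowest library.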
